A study of Mus musculus with 9 samples.

Results

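P-bodies are granules of the cytoplasm in which mRNAs that are not being translated gather together with the proteins that repress and degrade them. The 10 genes described here encode proteins of these granules and of the decay pathway from the 5′ end: Tnrc6a, Tnrc6b, Tnrc6c, Ddx6, Lsm14a, Dcp1a, Dcp2, Edc3, Edc4 and Xrn1. The rule names them by symbol and uses no measured value, although the list was drawn up with earlier results of these data known, and each matched 1 row of the table of 16636 genes by its mouse gene symbol. All 10 were among the 14246 genes that passed the filter on low counts, with 1277 to 17116 counts per gene and library.

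RNA was measured by mRNA sequencing in E14 cells, a mouse embryonic stem cell line of wildtype genotype, and grown as naive pluripotent cells in 2i/LIF. That medium holds the MEK inhibitor PD0325901, the GSK3 inhibitor CHIR99021 and the cytokine LIF, and all groups shared it. The groups, with 3 libraries each, were untreated cells, cells given a control siRNA to luciferase (siLuc) and cells given siRNA to Stag3 (siStag3). The labels give the genotype of the siStag3 samples as Stag3 knockdown. Transfected cells received 50 pmol of siRNA with RNAiMax at seeding and the same amount again on the next day, and were collected after 48 hours. The untreated cells are not described as having received the transfection reagent, so siRNA and reagent cannot be told apart in comparisons with them. STAG3 is a subunit of cohesin, best known from meiosis, and the title of the series places it in mRNA regulation in the cytoplasm, which is the question that bears on these genes. Their transcript levels say nothing of the amount, the location or the activity of the proteins.

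In this pathway an Argonaute protein with its microRNA binds a target mRNA, and a TNRC6 protein (also called GW182) bound to Argonaute recruits the deadenylases that remove the poly(A) tail. The helicase DDX6 with partners such as LSM14A represses translation and promotes removal of the cap. DCP2 is the decapping enzyme, DCP1A, EDC3 and EDC4 assist it, and the exonuclease XRN1 then degrades the uncapped mRNA from its 5′ end. In embryonic stem cells this machinery carries out microRNA repression, and loss of DDX6 is known to disturb exit from pluripotency.

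The name GW182 refers to glycine (G) and tryptophan (W) next to each other in the protein, the feature by which TNRC6 proteins bind Argonaute and the deadenylases. The following stretches are shown because they mark the 3 scaffolds off from the other 7 genes. Each is the 120-base window of the coding sequence that holds the most such pairs, 5′ to 3′ on the mRNA strand, with the codon pairs GGNTGG or TGGGGN in the reading frame in capitals. Where both kinds overlap, the run of capitals holds 2 pairs. The sequences are those of GENCODE M21 transcripts (GRCm38), and positions are counted from 1 at the A of the start codon: 2641 to 2760 in Tnrc6a, 2977 to 3096 in Tnrc6b and 2479 to 2598 in Tnrc6c.
Tnrc6a: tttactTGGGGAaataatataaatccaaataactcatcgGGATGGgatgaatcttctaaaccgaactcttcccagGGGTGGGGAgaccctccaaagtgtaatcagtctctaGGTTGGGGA
Tnrc6b: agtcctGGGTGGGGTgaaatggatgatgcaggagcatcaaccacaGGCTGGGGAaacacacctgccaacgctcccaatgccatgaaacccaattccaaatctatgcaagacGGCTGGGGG
Tnrc6c: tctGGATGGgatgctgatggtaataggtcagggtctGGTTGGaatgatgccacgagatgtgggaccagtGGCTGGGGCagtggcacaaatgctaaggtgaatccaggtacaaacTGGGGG

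The whole coding sequences held 46 such pairs in Tnrc6a, 38 in Tnrc6b and 39 in Tnrc6c. These were the 3 highest counts among 16422 coding sequences searched in the reading frame, of which 55.4% held none. Dcp2 held 2 pairs, Ddx6 held 1 and the other 5 genes held 0. None of the 45 pairs of these 10 genes shared a 31-base sequence in their protein-coding transcripts, so reads of that length can be told apart between them. Dcp1a overlaps Cacna1d in RefSeq (GRCm38.p6), the only such overlap with a gene of the count table. Whether counting used strand is not given in the sources used here.

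The 9 libraries held between 29332436 and 44527534 counts, and the genes of the mitochondrial genome took 3.48% to 6.78% of them. Column names assign each library to a set, and each group has 2 libraries of Set 1 and 1 of Set 3. What a set stands for is not given in the labels. All 11 naive pluripotency markers checked were present, with Pou5f1 at 800 to 958 CPM (the gene's counts relative to the library's TMM-scaled total, as counts per 1000000). Summed levels of other cell types' markers were set beside these. Primitive endoderm (6 markers) was at 2.80 to 3.28 CPM in untreated, 2.71 to 3.22 in siLuc and 2.05 to 2.55 in siStag3, and trophectoderm (5 markers) at 6.33 to 6.68, 7.003 to 7.81 and 4.62 to 6.27. Primed epiblast (5 markers) was at 164.2 to 179.6 CPM in untreated, 186 to 190.1 in siLuc and 171 to 175 in siStag3. Most of this sum was Dnmt3b (138 to 174 CPM over all libraries), followed by Otx2 (11.6 to 34.7). Fgf5, Pou3f1 and Sox3 reached at most 0.421, 0.541 and 1.29 CPM. The 4 markers of 2-cell-like cells present in the counts were at 0.997 to 2.25 CPM in untreated, 1.11 to 1.67 in siLuc and 1.78 to 1.95 in siStag3. For these 4 lists the siStag3 and siLuc ranges did not overlap, where 6.59% of single genes tested did not. Their part in the comparisons was not tested. Over all libraries Pdgfra reached 2.01 CPM and each other primitive endoderm marker 0.429 CPM or less. Of the 2-cell-like markers, Usp17la was at 0.813 to 1.45 CPM and the Zscan4 genes at 0 to 0.65 CPM. The 6 fibroblast markers present (Dcn was absent) lay at 3.43 to 5.50 CPM, with overlapping groups. Stag3 itself was at 24.1, 24.3 and 28.6 CPM in untreated cells, 22.5, 23.3 and 26.7 in siLuc and 13.5, 15.2 and 15.6 in siStag3. In siStag3 cells it averaged 61.2% of its siLuc level, and the exact two-sided permutation test gave p = 0.1, the smallest that 3 against 3 libraries allow. In the fit across all genes its log2 fold change was -0.71 (edgeR adjusted p 0.00205), and without the set as covariate it was also -0.71, with an adjusted p of 0.605. Leaving out 1 library gave -0.76 to -0.67, and the call was lost without the siStag3 library of Set 1 experiment 1 (edgeR adjusted p 0.0582). The knockdown was partial in the bulk RNA, and the comparisons concern cultures that on average kept most of their Stag3 mRNA.

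Levels of different genes were compared per length, as CPM per kb of the longest protein-coding transcript of GENCODE M21. Ddx6 and Lsm14a, the repressors, had the highest levels in untreated cells, at 62.2 ± 8.20 and 57.0 ± 4.22 CPM per kb (SD, n = 3). The decapping enzyme Dcp2 followed at 32.6 ± 3.28 and its scaffold partner Edc4 at 20.4 ± 1.60. Tnrc6a (15.8 ± 0.547) was the highest of the 3 GW182 genes, above Tnrc6c (9.12 ± 0.601) and Tnrc6b (4.74 ± 0.975). Dcp1a was at 11.99 ± 0.476, Edc3 at 9.91 ± 0.403 and Xrn1 at 5.93 ± 0.872. By the same measure, Ddx6 lay at percentile 92 of all genes tested with a known length and Tnrc6b at percentile 45.3.

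Of the 9 neighbouring pairs in this order, the untreated ranges of 2 overlapped: Ddx6 with Lsm14a, and Xrn1 with Tnrc6b. Ddx6 was above Lsm14a in 7 of 9 libraries, whereas Xrn1 was above Tnrc6b in all 9. Edc3 and Tnrc6c were separated by little, with a lowest Edc3 value of 9.61 and a highest Tnrc6c value of 9.57 CPM per kb in untreated cells, and kept this order in 8 of 9 libraries. The order rests on the transcript taken: the Tnrc6b transcript has 17.3 kb, of which 11612 bases are 3′ UTR, and a shorter form in these cells would raise its value.

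**Figure D1:**
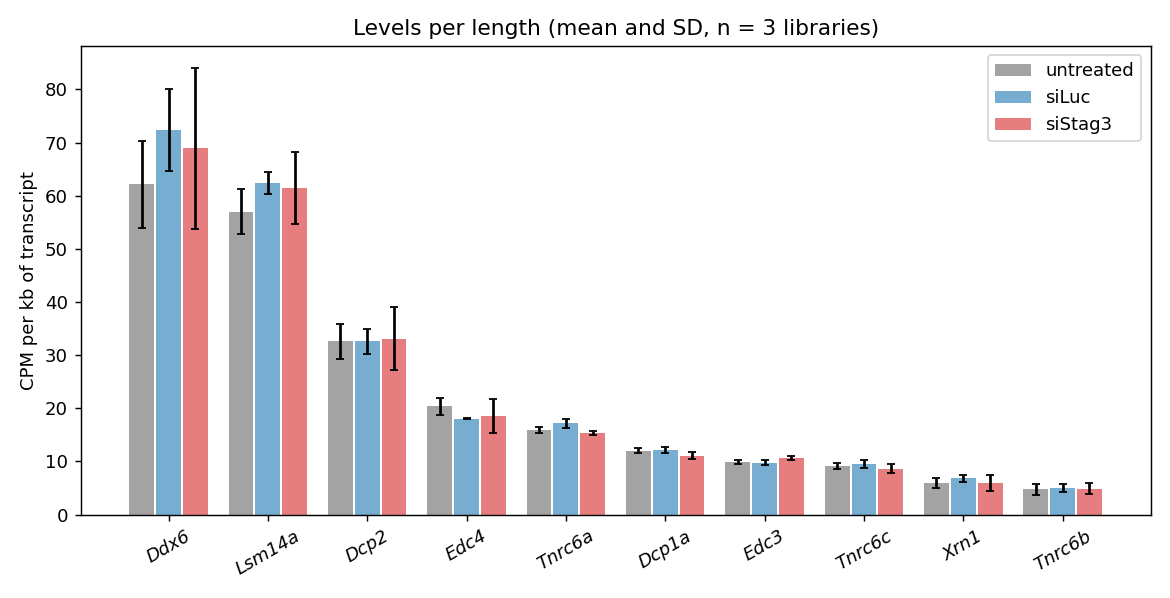
Level per length of the 10 genes in CPM per kb of transcript (y axis), with bars for the mean and error bars for the SD of 3 libraries in each group. Ddx6 and Lsm14a lie highest in every group and Tnrc6b lowest, at 4.74 to 4.996 CPM per kb.

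The central comparison asks whether the decay genes moved when Stag3 was lowered, with siLuc as control. None of the 10 genes passed the threshold (edgeR, adjusted p under 0.05 over all genes tested, with the set as a covariate). In the same test 4 of 14246 genes passed, or 0.0281%, so a count of 0 among 10 genes does not set them apart. DESeq2 also called none of the 10, where it called 22 of 14246 genes, and put 2 of them at an unadjusted p under 0.05, against 5.62% of all genes. The adjusted p of the 10 genes ran from 0.484 to 0.979, and 3 of them (Xrn1, Tnrc6a and Dcp1a) had an unadjusted p under 0.05, against 7.88% of all genes. With a correction for GC content 5 of the 10 had such a p in edgeR, against 10.5% of all genes. They were Tnrc6c (-0.17), Xrn1 (-0.16), Tnrc6a (-0.13) and Dcp1a (-0.10) below 0 and Edc3 (0.12) above it. With set and experiment as a block 0 of the 10 had such a p, against 4.67%. The estimates ran from -0.24 for Xrn1 to 0.13 for Edc3 on the log2 scale. All 95% intervals of this fit, which are not adjusted for the number of genes, lay between 0.749-fold and 1.20-fold. Without the set term the SE was larger, at 0.187 against 0.0827 for Xrn1, 0.191 against 0.0746 for Tnrc6b and 0.0647 against 0.0569 for Tnrc6a. These bounds therefore hold only for the fit with the set, which takes the same difference in both sets. They equal -0.42 to 0.26 on the log2 scale. In Set 3 alone, with 1 library per group, Xrn1 (-0.57), Edc4 (0.30) and Edc3 (0.28) lay outside them and the other genes within. Fewer cells expressing a gene and less RNA per cell cannot be told apart in such bulk samples.

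**Figure D2:**
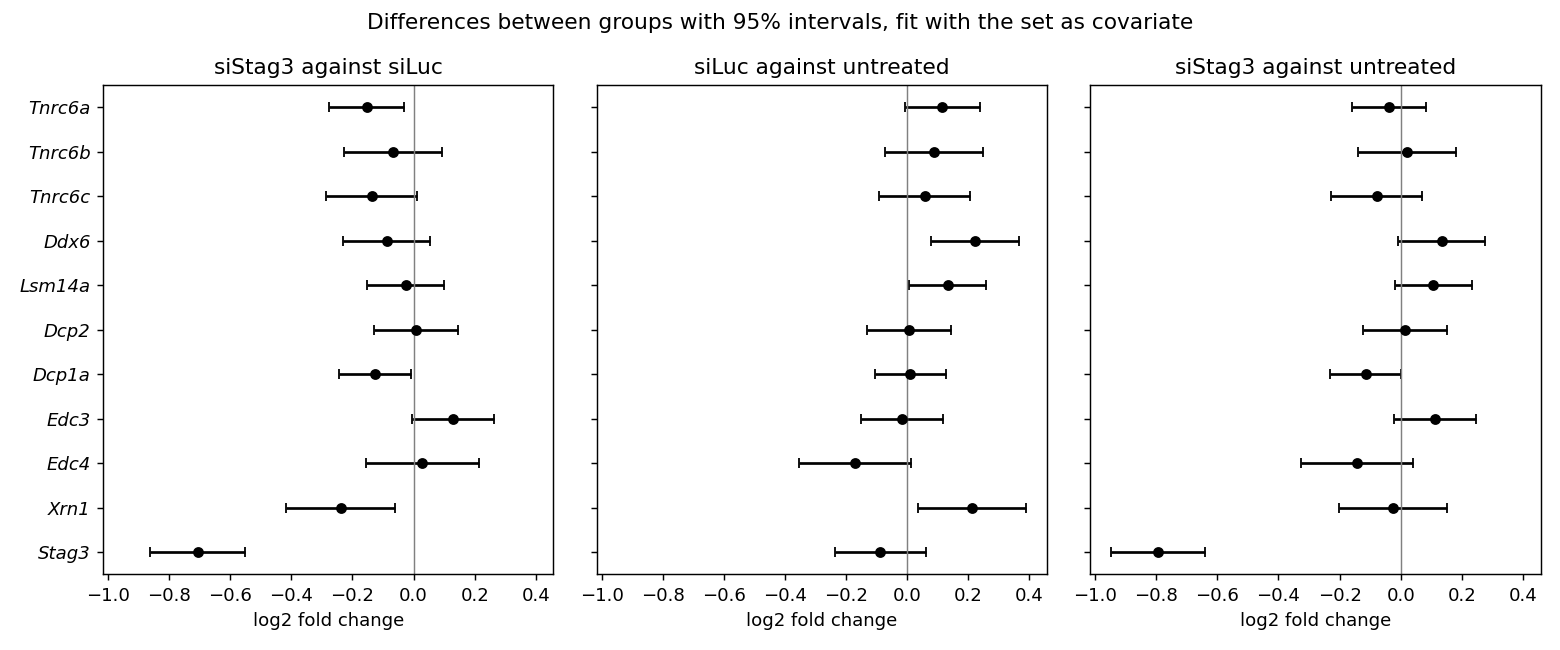
Log2 fold change (x axis) of the 10 genes and of Stag3 in each comparison, with points for the estimate and bars for its 95% interval in the edgeR fit with the set as covariate. In siStag3 against siLuc, Stag3 lies at -0.71 and the 10 genes lie between -0.24 and 0.13.

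Among the GW182 scaffolds, Tnrc6a was at 132, 132 and 124 CPM in untreated cells, 133, 141 and 146 in siLuc and 127, 129 and 123 in siStag3, where the third value in each group is the Set 3 library, as for all genes that follow. All siStag3 libraries lay below all siLuc libraries, while siStag3 and untreated overlapped. Between siStag3 and siLuc the log2 difference was -0.15 (95% interval -0.28 to -0.03, edgeR adjusted p 0.513). Tnrc6c was at 84.6, 74.7 and 82.9 CPM in untreated cells, 78.1, 82.1 and 92.3 in siLuc and 77.8, 68.6 and 83.2 in siStag3, with all groups overlapping. The siStag3 to siLuc difference was -0.14 on the log2 scale (SE 0.0694, edgeR adjusted p 0.653).

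Tnrc6b differed from its paralogs in how its libraries were spread. It was at 97.7, 84.5 and 64.1 CPM in untreated cells, 87.4, 98.7 and 73.7 in siLuc and 96.0, 91.5 and 63.0 in siStag3. The Set 3 library was the lowest of each group, and the difference of siStag3 from siLuc was -0.07 (SE 0.0746, edgeR adjusted p 0.824).

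Of the repressors, Ddx6 had the most counts of the 10 genes. It was at 392, 417 and 321 CPM in untreated cells, 458, 472 and 386 in siLuc and 475, 466 and 312 in siStag3. The Set 3 library was again the lowest in each group, and the groups overlapped, siStag3 and siLuc also within Set 1. The siStag3 libraries differed from siLuc by -0.09 (SE 0.0667, edgeR adjusted p 0.751). Lsm14a was at 166, 181 and 156 CPM in untreated cells, 188, 186 and 177 in siLuc and 192, 193 and 158 in siStag3. Its difference was -0.03 (SE 0.0590, edgeR adjusted p 0.918).

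For the decapping enzyme, Dcp2 was at 291, 302 and 249 CPM in untreated cells, 287, 298 and 259 in siLuc and 312, 318 and 226 in siStag3. The siStag3 libraries held both the highest values and the lowest one, and the difference from siLuc was 0.01 (95% interval -0.13 to 0.15, edgeR adjusted p 0.979). Its partner Dcp1a was at 69.3, 67.3 and 64.0 CPM in untreated cells, 67.8, 70.2 and 64.2 in siLuc and 64.6, 63.4 and 57.5 in siStag3. The siStag3 libraries of Set 1 lay below the other Set 1 libraries and that of Set 3 below the other Set 3 libraries. The log2 fold change was -0.13 against siLuc (edgeR adjusted p 0.614) and -0.11 against untreated cells (edgeR adjusted p 0.301).

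Among the enhancers of decapping, Edc3, a scaffold that binds DCP2 and DDX6, was at 59.2, 55.6 and 54.8 CPM in untreated cells, 56.9, 58.3 and 52.3 in siLuc and 59.3, 60.5 and 63.3 in siStag3. All siStag3 libraries lay above all others, by 0.13 (edgeR adjusted p 0.641) against siLuc and 0.11 (edgeR adjusted p 0.382) against untreated cells on the log2 scale. Edc4, a large scaffold that bridges DCP1A and DCP2, was at 104, 88.8 and 99.6 CPM in untreated cells, 86.5, 86.2 and 86.4 in siLuc and 80.4, 79.2 and 107 in siStag3. In siStag3 its Set 1 libraries were the lowest of the 9 and its Set 3 library the highest. The difference from siLuc was 0.03 (SE 0.0857, edgeR adjusted p 0.936).

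Xrn1, the exonuclease at the end of the pathway, had the largest estimate. It was at 66.2, 65.7 and 50.4 CPM in untreated cells, 73.8, 73.7 and 62.7 in siLuc and 70.6, 68.7 and 42.1 in siStag3. The siStag3 library of Set 3 was the lowest of the 9, and the groups overlapped across sets. Between siStag3 and siLuc the log2 difference was -0.24 (95% interval -0.42 to -0.06, edgeR adjusted p 0.484). It was -0.11 without the siStag3 library of Set 3, -0.14 without the siLuc library of Set 3 and -0.16 (edgeR adjusted p 0.209) after a correction for GC content.

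**Figure D3:**
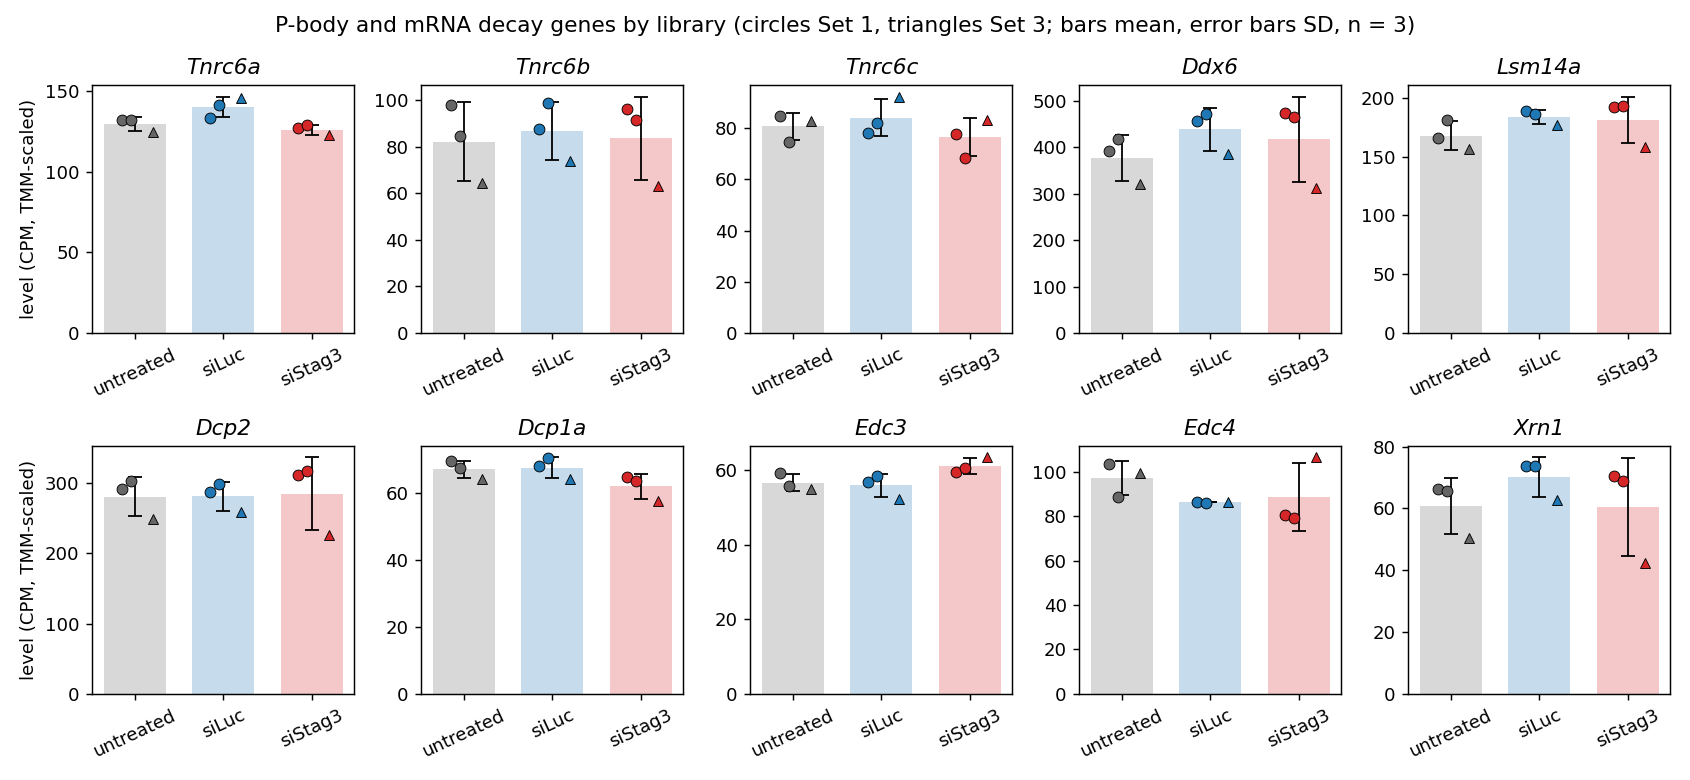
Level in CPM (y axis, from 0) of each of the 10 genes in the 3 groups, with circles for Set 1 libraries, triangles for Set 3 libraries, bars for means and error bars for the SD of 3 libraries. The triangles of Tnrc6b, Ddx6, Dcp2 and Xrn1 lie below the circles of their group.

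Groups that did not overlap in siStag3 against siLuc were found for 2 of the 10 genes, Tnrc6a (lower) and Edc3 (higher), against 6.59% of all genes tested. A count of 2 in a list of this size is given as a description. Without the set term the smallest adjusted p of the 10 genes was 1.00 (edgeR), and no gene of the 14246 passed, with 2.15% at an unadjusted p under 0.05.

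Within the sets the differences of siStag3 from siLuc did not run in parallel. In Set 1, with 2 libraries per group, 5 of the 10 genes lay above 0 and the median was -0.03 on the log2 scale. A fit of Set 1 alone put 49.5% of all genes above 0, with a median of -0.0013. In Set 3, with 1 library per group and hence no error, 2 of the 10 lay above 0 and the median was -0.18. The siLuc library there carries experiment 1 and the siStag3 library experiment 5. No share over all genes was taken in Set 3 alone. The estimated Set 3 minus Set 1 difference lay above 0 for 2 of the 10 genes, against 50.9% of all genes. The sign was the same in both sets for 5 genes: Tnrc6a, Tnrc6c, Dcp1a and Xrn1 below 0 and Edc3 above it. For the other 5 the sets had opposite signs, as for Ddx6 (0.02 in Set 1 and -0.30 in Set 3) and Edc4 (-0.11 and 0.30).

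The difference between the sets was itself tested with an interaction term, which leaves 3 residual degrees of freedom. Xrn1 passed, with -0.08 in Set 1 and -0.57 in Set 3 (difference -0.49, edgeR adjusted p 0.0492). In that test 1.12% of all genes passed, 0.976% with the lower difference in Set 3. The adjusted p of Xrn1 was 0.0516 with DESeq2 size factors, 0.0666 with scaling by total count only and 0.685 (difference -0.20) after the GC correction, all in edgeR. Ddx6 (-0.32), Dcp2 (-0.30) and Edc4 (0.42) had an edgeR adjusted p of 0.0998, 0.107 and 0.0957. For siLuc and for siStag3 against untreated cells no interaction of the 10 genes passed, at 0.014% and 0.00702% of all genes, with the smallest edgeR adjusted p at 0.662 and 0.530, and 0 and 4 of the 10 genes at an unadjusted p under 0.05, against 7.92% and 9.06% of all genes. In siStag3 against siLuc 4 of the 10 had an unadjusted interaction p under 0.05, against 21.6% of all genes.

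**Figure D4:**
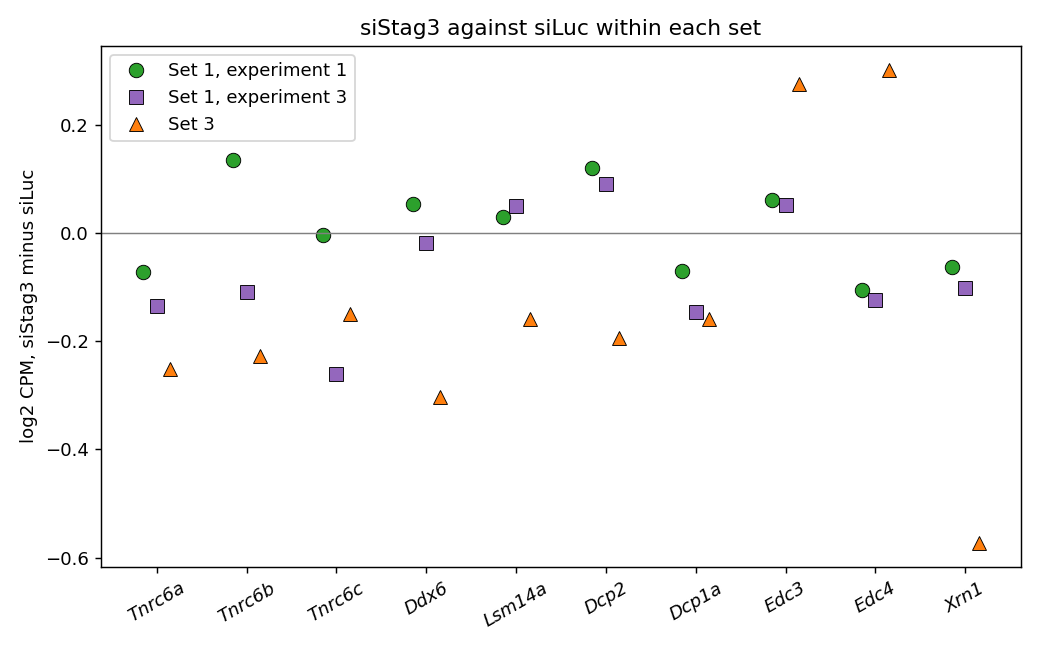
Difference in log2 CPM of siStag3 from siLuc (y axis) for each gene in Set 1 experiment 1, Set 1 experiment 3 and Set 3, 1 library against 1 at each point. The Set 3 point of Xrn1 lies at -0.57 and that of Edc4 at 0.30, apart from their Set 1 points.

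The comparison of siLuc with untreated cells shows what transfection went with. None of the 10 genes passed (edgeR with the set), where 4.2% of all genes did, and 3 had an unadjusted p under 0.05, against 27.8% of all genes. The largest estimates were those of Ddx6 (0.22, 95% interval 0.08 to 0.37, edgeR adjusted p 0.0668) and Xrn1 (0.21, interval 0.04 to 0.39, edgeR adjusted p 0.12). Lsm14a followed at 0.13 (edgeR adjusted p 0.163), and Edc4 was the lowest at -0.17 (edgeR adjusted p 0.209). Estimates were above 0 for 8 of the 10 genes, against 49.6% of all genes. With scaling by total count only they were above 0 for 6, against 39.9% of all genes.

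For Ddx6 the siLuc libraries lay above the untreated ones of their own set, by 0.20 in Set 1 and 0.26 in Set 3, and for Xrn1 by 0.16 and 0.31. In Set 3 the siLuc library carries experiment 1 and the untreated library experiment 5. Transfection and experiment number cannot be told apart there. Whether these genes passed depended on the fit. Ddx6 passed with DESeq2 (adjusted p 0.0306), with only the 6 libraries compared (edgeR adjusted p 0.0233) and without the siStag3 library of Set 3 (edgeR adjusted p 0.00966). Xrn1 passed in the last 2 of these (edgeR adjusted p 0.0321 and 0.015). The share of all genes called in these fits was 9.39%, 12.8% and 17%. After the GC correction Ddx6 was at 0.08 (edgeR adjusted p 0.289) and Xrn1 at 0.05 (edgeR adjusted p 0.619), while Dcp2 moved from 0.01 to -0.14 (edgeR adjusted p 0.0551). Tnrc6a (higher) and Edc4 (lower) were the only genes of the 10 whose siLuc and untreated libraries did not overlap, against 19.9% of all genes.

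In siStag3 against untreated cells, which joins transfection and Stag3 siRNA, none of the 10 genes passed, against 2.53% of all genes, and none had an unadjusted p under 0.05 (edgeR, DESeq2 also 0). Estimates ran from -0.14 (Edc4, edgeR adjusted p 0.41) to 0.13 (Ddx6, edgeR adjusted p 0.324). All intervals of the edgeR fit with the set lay between 0.797-fold and 1.21-fold. Without the siStag3 library of Set 3, Ddx6 was at 0.23 (edgeR adjusted p 0.0228) and Edc4 at -0.27 (edgeR adjusted p 0.0201), and both also passed in Set 1 alone (0.22 and -0.27, edgeR adjusted p 0.0435 and 0.0481). These fits called 11% and 6.62% of all genes. In Set 3 the same differences were -0.04 for Ddx6 and 0.10 for Edc4. Edc3 was the only gene of the 10 whose groups did not overlap, against 10% of all genes. This comparison shares its untreated libraries with the previous one and its siStag3 libraries with the first.

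The sets were also compared with each other. In the same fit, 5 of the 10 genes were lower in Set 3 than in Set 1 and none was higher, against 42.7% of all genes called, 21.2% lower. They were Tnrc6b (-0.47, SE 0.0658, edgeR adjusted p 0.000127), Xrn1 (-0.44, edgeR adjusted p 0.000399), Ddx6 (-0.40, edgeR adjusted p 0.000191), Dcp2 (-0.30, edgeR adjusted p 0.000936) and Lsm14a (-0.17, edgeR adjusted p 0.0157). In the first 4 the 3 Set 3 libraries lay below all 6 Set 1 libraries, against 13% of all genes for that direction. Tnrc6a (-0.02, edgeR adjusted p 0.779) and Edc3 (-0.04, edgeR adjusted p 0.575) showed the smallest differences. Tnrc6c (0.15) and Edc4 (0.16) lay above 0 (edgeR adjusted p 0.0578 and 0.0979). With scaling by total count only, Tnrc6c passed as higher in Set 3 (0.20, edgeR adjusted p 0.024) and Lsm14a did not pass (-0.12, edgeR adjusted p 0.0543). Leaving out 1 library gave 4 to 7 called genes. Without the untreated library of Set 1 experiment 1, Tnrc6c (0.18, edgeR adjusted p 0.0167) and Edc4 (0.20, edgeR adjusted p 0.0298) passed as higher in Set 3, and so did Edc4 without the siLuc library of Set 3 (0.24, edgeR adjusted p 0.0302). Lsm14a did not pass without the Set 3 library of untreated (edgeR adjusted p 0.0608) or of siStag3 (edgeR adjusted p 0.13).

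The 5 genes that were lower in Set 3 have the 5 lowest GC contents of the 10 transcripts. Xrn1, Dcp2 and Ddx6 (41.9%, 42.7% and 43.4%) lie below 44.9%, the upper bound of the lowest of 4 equal GC groups of all genes, and Lsm14a (46.0%) and Tnrc6b (46.8%) lie above it. Edc4 (55.5%) and Tnrc6c (53.9%) have the highest, and the median of all genes was 50.0%. Across 14226 genes, which are not independent replicates, log2 fold change and GC content had a Spearman correlation of 0.492 for Set 3 against Set 1, 0.385 for siStag3 against siLuc and -0.495 for siLuc against untreated. In these comparisons the lowest GC group had a median log2 fold change of -0.21, -0.07 and 0.15. After the correction for GC content Tnrc6b (-0.37), Xrn1 (-0.24), Ddx6 (-0.23) and Dcp2 (-0.14) were still lower in Set 3 (edgeR adjusted p 6.62e-05, 0.000259, 6.69e-05 and 0.00588), against 20.8% of all genes, and Lsm14a (-0.06, edgeR adjusted p 0.151) was not called. Mitochondrial genes took 3.48% to 5.98% of counts in Set 3 and 4.41% to 6.78% in Set 1, and their part in the difference was not tested.

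Within the transcripts, the coding GC content ran from 42.9% in Xrn1 to 56.2% in Tnrc6c, and that of the 3′ UTR from 37.0% in Lsm14a to 50.5% in Edc3. Edc4 has the shortest 3′ UTR of the 10, at 366 bases, and Tnrc6b and Dcp2 the longest, at 11612 and 7243 bases.

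**Figure D5:**
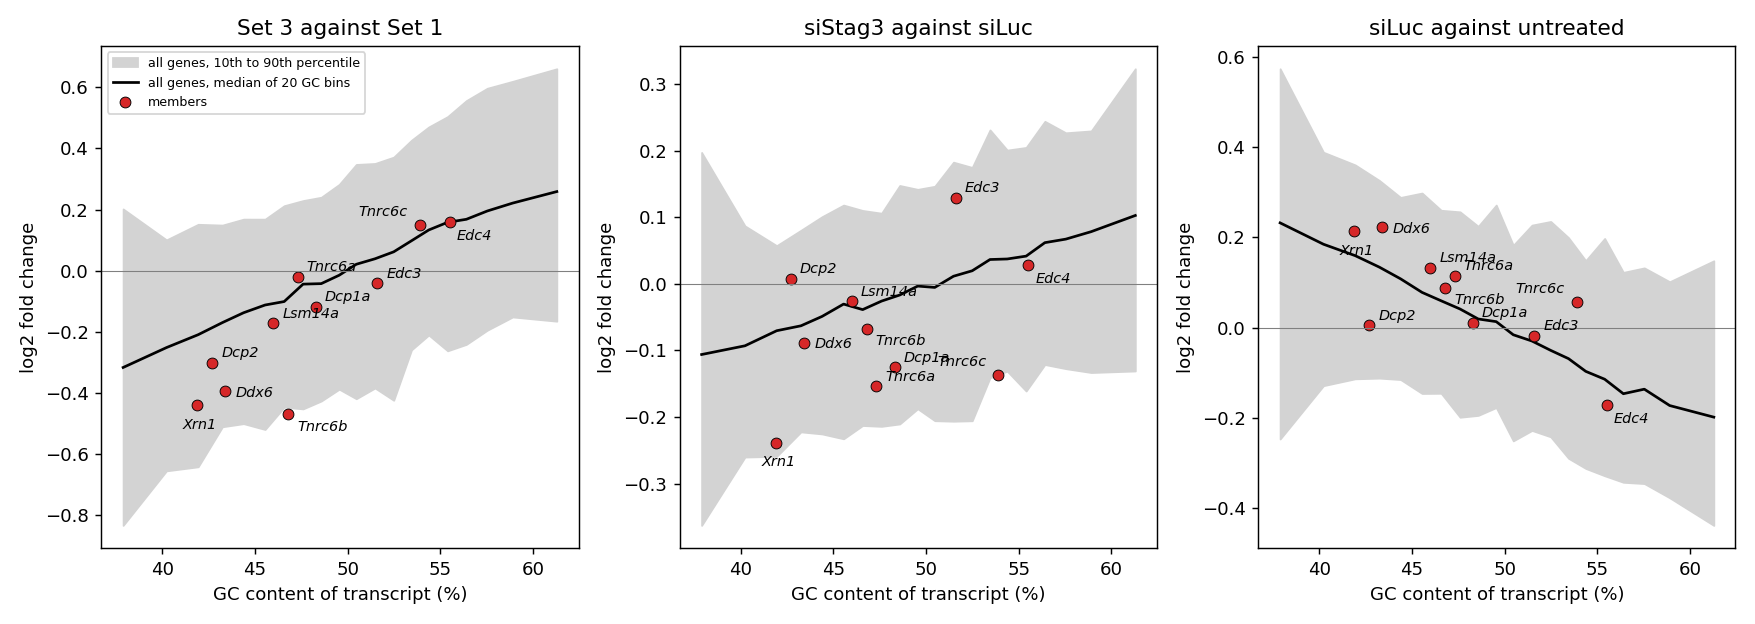
Log2 fold change (y axis) against the GC content of the transcript in percent (x axis) for Set 3 against Set 1, siStag3 against siLuc and siLuc against untreated, with red points for the 10 genes, a line for the median and a grey band for the 10th to 90th percentile of all genes in 20 GC bins. In the first panel Xrn1, Dcp2 and Ddx6 lie at 41.9% to 43.4% GC and -0.44 to -0.30.

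The other genes of mRNA decay and repression were taken from 7 lists with 102 genes in the table, of which 101 were tested. They hold the CCR4-NOT and PAN deadenylases, the partners of decapping, Argonautes and their partners, the exosome and SKI complex, nonsense-mediated decay, RNA-binding repressors that recruit decay, and stress granule genes. In siStag3 against siLuc none of the 101 passed and 41 lay above 0, against 48.3% of all genes. Their median was -0.02, beside -0.0048 over all genes. The 10 P-body genes had a median of -0.08 in the same fit, with 3 above 0. That median was -0.04 without the siLuc library of Set 3, -0.13 without the siLuc library of Set 1 experiment 1 and -0.03 with the GC correction. Over all genes the medians of these fits were 0.0004, -0.0008 and 0.0021. By list, the count above 0 was 9 of 20 for deadenylation, 6 of 16 for decapping partners, 2 of 8 for Argonautes and partners, 8 of 17 for the exosome and SKI, 3 of 10 for nonsense-mediated decay, 6 of 18 for repressors and 7 of 12 for stress granules. The lowest p was that of Lin28a (-0.23, edgeR adjusted p 0.228), which encodes an RNA-binding protein that blocks let-7 maturation. With the GC correction Lin28a (-0.23, edgeR adjusted p 0.0139) and Limd1 (-0.30, edgeR adjusted p 0.04), a P-body LIM protein named here after its values were seen, both passed, at 0.429% of all genes.

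Against untreated cells, 3 of the 101 genes passed in siLuc, 2 higher and 1 lower, where 4.2% of all genes did, so the count does not set these lists apart. Lin28a rose from 123, 121 and 145 CPM in untreated cells to 136, 140 and 179 in siLuc (0.22, edgeR adjusted p 0.0344) and was at 119, 120 and 147 in siStag3. The stress granule gene G3bp2 rose from 457, 529 and 330 to 605, 585 and 432 CPM (0.31, edgeR adjusted p 0.0346). Zfp36, whose protein binds AU-rich elements and recruits deadenylases, fell from 14.7, 14.3 and 11.4 to 11.1, 11.4 and 9.83 CPM (-0.32, edgeR adjusted p 0.0422). In each of these 3 genes every siLuc library lay on the same side of the untreated libraries of its own set. The genes were picked by the test on these same libraries, so this describes them and adds no separate support. In siStag3 against untreated cells G3bp2 alone of the 101 passed (0.35, edgeR adjusted p 0.0206), at 665, 663 and 378 CPM, where 2.53% of all genes did. Without the set term none of the 101 passed in any comparison. With the GC correction 6 passed in siLuc and 6 in siStag3 against untreated cells, where 6.98% and 6.79% of all genes did. With set and experiment as a block none of the 101 passed in siLuc against untreated cells, where 0.604% of all genes did. In siStag3 against untreated cells that block called 2.47% of all genes.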

How the data were processed

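Raw counts for each gene in 9 libraries were deposited by the authors, and the submitters' processing notes name FastQC, Salmon, DESeq2 and GRCm39 without versions or roles. If Salmon made the counts, they are estimates rounded to whole numbers. The aligner settings, annotation and strand setting are not given in the sources used here, and genes with a sum below 9 counts are absent from the table. Genes of the list and of the other lists, and the design, were chosen with earlier results of these data known. Columns carry WT, Rluc or SA3KD, read here as untreated, siLuc and siStag3. They also carry set and experiment, but not the replicate numbers of the titles. The labels call the replicates biological, without saying how cultures were separated.

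All genes passing filterByExpr were tested in 1 fit over 9 libraries with edgeR 4.0.16 in R 4.3.3 (TMM, estimateDisp, robust glmQLFit, glmQLFTest), with a mean per group and the set as covariate, because libraries separate by set (biological coefficient of variation 7.62% with it and 14.6% without). P-values are two-sided with Benjamini-Hochberg adjustment over all genes and a threshold of 0.05. The SE is the absolute log2 fold change divided by the square root of F, and 95% intervals use the t quantile of the test. CPM were scaled by TMM factors. A count of 3 equals 0.0674 to 0.102 CPM, for counting error only. The GC correction subtracts from each library the median deviation in 20 GC bins (GENCODE M21, 16604 of 16636 gene IDs matched). All 10 genes are named, with Stag3 and the genes called in the other lists.

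In simulated data for siStag3 against siLuc (14246 genes), the test found 20% of the genes altered by 0.25 on the log2 scale, 52% at 0.5, 80% at 1 and 98% at 2, with 13 false calls among 137. Deviations from group means correlated at 0.271 to 0.807 over the 7 pairs of libraries of the same set and experiment in different groups, and at 0.215 to 0.685 over the pairs sharing only the set. Alternatives were the fit without the set, DESeq2 1.42.0, other scalings and filters, the 6 libraries compared, a non-robust fit, Set 1 alone, a block of set and experiment, and each library left out.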

Additional observations from a re-analysis of the deposited data

Results flagged for a closer look

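Xrn1 in siStag3 against siLuc differed between the sets by an interaction test, with a Set 3 minus Set 1 difference of -0.49 on the log2 scale (edgeR adjusted p 0.0492). It rests on 1 library per group in Set 3, where siLuc was at 62.7 and siStag3 at 42.1 CPM, and on experiment 1 for that siLuc library against experiment 5 for that siStag3 library. Mitochondrial genes took 5.98% and 4.10% of the counts of these libraries, and their part in the difference was not tested.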

How the results depend on the processing

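No called difference changed sign. In siStag3 against siLuc, none of the 10 genes passed under any alternative. In siLuc against untreated, 1 passed by DESeq2 (9.39% of all genes), 2 when only the 6 libraries compared were fitted (12.8%), and 0 to 2 when 1 library was left out. In siStag3 against untreated, 2 passed in Set 1 alone (6.62% of all genes) and 0 to 2 when 1 library was left out. The calls in the last 2 ranges came without the siStag3 library of Set 3, where 17% and 11% of all genes passed. A mean of at least 50 counts added Dcp1a to the genes lower in Set 3. The interaction of the set called 1 of the 10 genes in siStag3 against siLuc, and 0 with the GC correction, DESeq2 size factors or total count only, all 3 chosen after the data were seen.

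Over all genes, siStag3 against siLuc gave 4 genes, 0 without the set (307 genes had an unadjusted p under 0.05), 22 with DESeq2, 1 with only the 6 libraries compared, 61 with the GC correction and 0 to 4 with 1 library left out. siLuc against untreated gave 598, 1 without the set, 1337 with DESeq2, 1801 with only the 6 libraries, 993 with the GC correction, 298 in Set 1 alone and 111 to 2458 with 1 library left out. siStag3 against untreated gave 361, 2 without the set, 966 with the GC correction, 949 in Set 1 alone and 78 to 1591 with 1 library left out. The highest values of the last 2 ranges came without the siStag3 library of Set 3.

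Of the 101 other pathway genes, siStag3 against siLuc gave 0, and 2 with the GC correction, where 0.0281% and 0.429% of all genes passed. The share of all genes called is given in brackets for the other comparisons. siLuc against untreated gave 3 (4.2%), 0 without the set (0.00702%), 10 with DESeq2 (9.39%) and 15 with only the 6 libraries (12.8%). It gave 6 with the GC correction (6.98%), 0 in Set 1 alone (298 of 14328 genes) and 0 to 23 with 1 library left out (up to 17%). siStag3 against untreated gave 1 (2.53%), 0 without the set (0.014%), 6 with the GC correction (6.79%), 5 in Set 1 alone (6.62%) and 0 to 11 with 1 library left out (up to 11%). The causes were not tested.

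The replicate block of set and experiment gave 2 genes in siStag3 against siLuc, 86 in siLuc against untreated and 352 in siStag3 against untreated, with 0 of the 10 P-body genes in each, and 0 of the other pathway genes in siLuc against untreated. In siLuc the Set 3 library carries experiment 1, whereas the other Set 3 libraries carry experiment 5. No other library shares its set and experiment, so this block removes it from the contrasts with siLuc.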
